A study of Mus musculus with 9 samples.

Results

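Long noncoding RNAs (lncRNAs) are transcripts that are processed much like messenger RNAs but are not known for making a protein. The genes described here are 8 mouse lncRNA symbols, Gm26917, Malat1, Neat1, Snhg1, Snhg12, Gas5, Lncenc1 and Tug1, taken as named rows of the deposited count tables. They were picked by name as abundant lncRNAs, so their levels are given as a description and are not tested. All 8 were found among the 40213 symbols in the files, and all 8 were among the 16562 with enough counts to be tested. Each had counts far above the filter in every group.

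The libraries came from total RNA of mouse embryonic stem (ES) cells cultured in ES cell medium with LIF, the cytokine on which their self-renewal depends. J1, a widely used ES cell line, was the control and had 3 libraries. The labels name a pair of Niwa stable lines with 3 libraries each. The OCT4 line carries OCT4, the pluripotency factor encoded by Pou5f1, and the EWS-OCT4 line carries OCT4 fused to EWS, an RNA-binding protein. The stable lines received 1 µg/ml doxycycline to lower their own OCT4, and the labels do not say whether J1 received it, or whether the numbered libraries were separate cultures or clones. P-values thus reflect no more than the spread among these libraries, possibly technical, and construct, host line and clone cannot be told apart. Totals per library were 21149358 to 24786305 counts, and no pair of replicates agreed within counting noise (chi-square per degree of freedom of at least 3.36). The check of the targeted gene, Pou5f1, gave a level, in CPM (counts per 1000000 of the TMM-scaled library total), of 569 ± 61.8 in J1, 165 ± 2.61 for OCT4 and 26.8 ± 2.12 for EWS-OCT4 (SD, n = 3), and reads of the introduced sequences may or may not be part of these counts.

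As background, the members do different work. Malat1 sits in nuclear speckles, the stores of splicing factors, and Neat1 builds the neighbouring paraspeckles around its long isoform. Snhg1, Snhg12 and Gas5 are host genes whose introns carry small nucleolar RNAs (snoRNAs), guides for chemical marks on ribosomal RNA, while their spliced RNAs are largely degraded by nonsense-mediated decay. Lncenc1 is an lncRNA enriched in naive ES cells, and Tug1 is a widely expressed lncRNA named for its upregulation by taurine. Gm26917 is a predicted gene whose counts in mouse libraries are often read together with ribosomal RNA.

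The ends of Malat1 and of the long isoform of Neat1 are shown because they set this pair apart from ordinary lncRNAs. These 3′ ends are not polyadenylated in the usual way but are cut by RNase P at a tRNA-like structure. A triple helix of 2 U-rich motifs and an A-rich tract protects them. Which Neat1 isoform the counts came from was not measured. Both windows are 130 bases from GRCm38, minus strand, written 5′ to 3′ in DNA letters, and they come from the reference and not from the libraries. Malat1 is at chr19:5795982-5796111 and Neat1 at chr19:5824708-5824837. Capitals mark every word of at least 10 bases that both windows hold, TTTCTTTTCCTGA and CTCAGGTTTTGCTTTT with the U-rich motifs and AAAAAGCAAAA with the A-rich tract.
Malat1: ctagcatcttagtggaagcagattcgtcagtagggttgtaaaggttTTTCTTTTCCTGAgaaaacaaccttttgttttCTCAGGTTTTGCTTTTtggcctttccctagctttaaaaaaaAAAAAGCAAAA
Neat1: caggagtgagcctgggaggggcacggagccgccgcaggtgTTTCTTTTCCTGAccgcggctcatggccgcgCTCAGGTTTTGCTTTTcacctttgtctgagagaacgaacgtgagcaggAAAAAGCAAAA
The words were taken from the ends of this pair, so that both hold them is no finding. Of 55341 genes in the GENCODE M21 transcripts, searched on the transcript strand, 2 (0.00361%) held the 3 words in this order within 130 bases, and these were Malat1 and Neat1. AAAAAGCAAAA alone was found in 376 genes (0.679%). The annotated 6983-base Malat1 transcript goes on for 292 bases after the tract, over the region of the small RNA mascRNA, and the annotated 20771-base Neat1 transcript ends at the tract. The symbol Mascrna had 0 counts in all 9 libraries, and whether such libraries can hold so small an RNA was not tested.

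The starts of the snoRNA hosts are shown because such genes are known for a run of pyrimidines (C or T) at the start of transcription, which they share with ribosomal protein genes. Each window is 40 bases, 20 on each side of the RefSeq start (GRCm38.p6, plus strand), with the longest pyrimidine run in capitals: Snhg1 at chr19:8723467-8723506, Snhg12 at chr4:132308658-132308697 and Gas5 at chr1:161035146-161035185.
Snhg1: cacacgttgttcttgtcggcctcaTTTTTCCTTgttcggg
Snhg12: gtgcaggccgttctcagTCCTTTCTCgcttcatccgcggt
Gas5: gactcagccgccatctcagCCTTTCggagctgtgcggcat
The run is 9 bases long in Snhg1 and in Snhg12, a length reached by 10.7% of 32851 RefSeq promoter entries in the same window, and 6 bases in Gas5, reached by 37.5%. The median over all entries is 5. The Snhg12 run spans the annotated start and the Gas5 run begins at the base before it, while the Snhg1 run lies downstream. A second Gas5 entry has a longest run of 3, and the runs are 6 in Lncenc1, 5 in Tug1 and 4 in Malat1. The octamer ATGCAAAT, the sequence that OCT4 binds, was searched on both strands from 250 bases before to 50 after each start. It was in none of the 7 member entries and in 570 (1.74%) of all entries, which says only that these letters are absent from these windows. Neat1 and Gm26917 had no promoter entry and were not searched.

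The members' counts per library covered more than 3 orders of magnitude, on a scale that favours long transcripts. In the mean over all 9 libraries, which pools lines of different level, Gm26917 had the second highest mean CPM of any tested gene (23740), and Malat1 ranked 30 (1589). Neat1 (272), Lncenc1 (266) and Tug1 (113) were above about 90.0% of tested genes or more. Gas5 averaged 69.5 CPM, above 82.9% of tested genes. By counts the label "abundant" held less well for Snhg1 (20.4 CPM) and Snhg12 (14.8 CPM), which were above 58.4% and 52.2% of tested genes and ranked 47 and 62 among 1400 tested lncRNA symbols. The 3 lncRNAs outside the set, H19, Meg3 and Rian, ranked between Lncenc1 and Tug1 with pooled means of 220, 154 and 121 CPM. These ranks do not hold in each line. By counts, Neat1 was above Lncenc1 only in OCT4 libraries (474 against 206 CPM) and below it in J1 (151 against 231) and EWS-OCT4 libraries (193 against 361). H19 was above Tug1 only in OCT4 libraries (600 CPM), with 39.9 in J1 and 20.5 in EWS-OCT4 libraries.

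**Figure D1:**
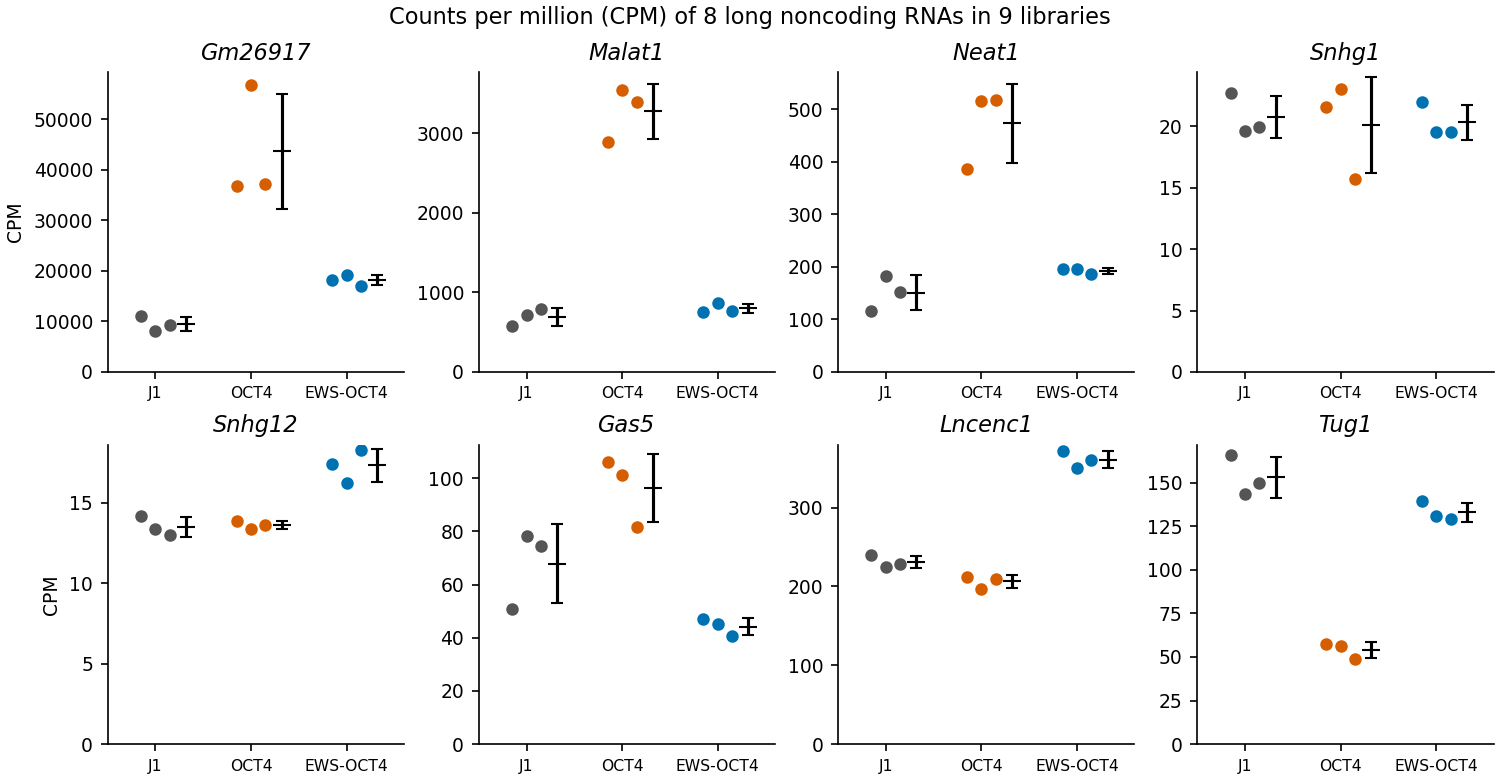
CPM (linear axes from 0) of each member in the 3 libraries of each line, with replicates 1 to 3 from left to right and the mean ± SD beside them in black. Malat1, Neat1, Gas5 and Gm26917 are highest in the 3 OCT4 libraries, Tug1 is lowest there, Lncenc1 and Snhg12 are highest in the EWS-OCT4 libraries, and Snhg1 overlaps in all lines.

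Together the 8 members took 1.10% ± 0.133 of library counts in J1 (SD, n = 3), 4.85% ± 1.23 in OCT4 libraries and 1.90% ± 0.111 in EWS-OCT4 libraries. Most of that was Gm26917, which made up 87.5% ± 2.51, 91.1% ± 1.54 and 92.0% ± 0.211 of the members' counts in the same order. Without it the other 7 took 0.136% ± 0.0131 of J1 counts, 0.420% ± 0.0436 of OCT4 counts and 0.151% ± 0.00548 of EWS-OCT4 counts.

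Differences between lines were tested for the other 7 members with edgeR's quasi-likelihood test, with p-values adjusted by Benjamini-Hochberg over all 16562 genes and called under 0.05. EWS-OCT4 against OCT4 called 6 of 7, with Snhg12, Lncenc1 and Tug1 higher in EWS-OCT4 libraries and Malat1, Neat1 and Gas5 lower. In that comparison 66.5% of all tested genes were called, 31.9% higher and 34.6% lower. EWS-OCT4 against J1 called 4 of 7, with Snhg12 and Lncenc1 higher and Gas5 and Tug1 lower, where 61.9% of all genes were called, 30.3% higher and 31.6% lower. OCT4 against J1 called 5 of 7, with Malat1, Neat1 and Gas5 higher and Lncenc1 and Tug1 lower, where 67.0% of all genes were called, 34.3% higher and 32.7% lower. With most tested genes called, the count of called members says little about the set. Both comparisons against J1 share the J1 libraries, and both comparisons with the OCT4 line share the OCT4 libraries. Each fit was repeated without each library in turn. Members called stayed at 6 for EWS-OCT4 against OCT4, ran from 3 to 5 for EWS-OCT4 against J1 and were 4 or 5 for OCT4 against J1.

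**Figure D2:**
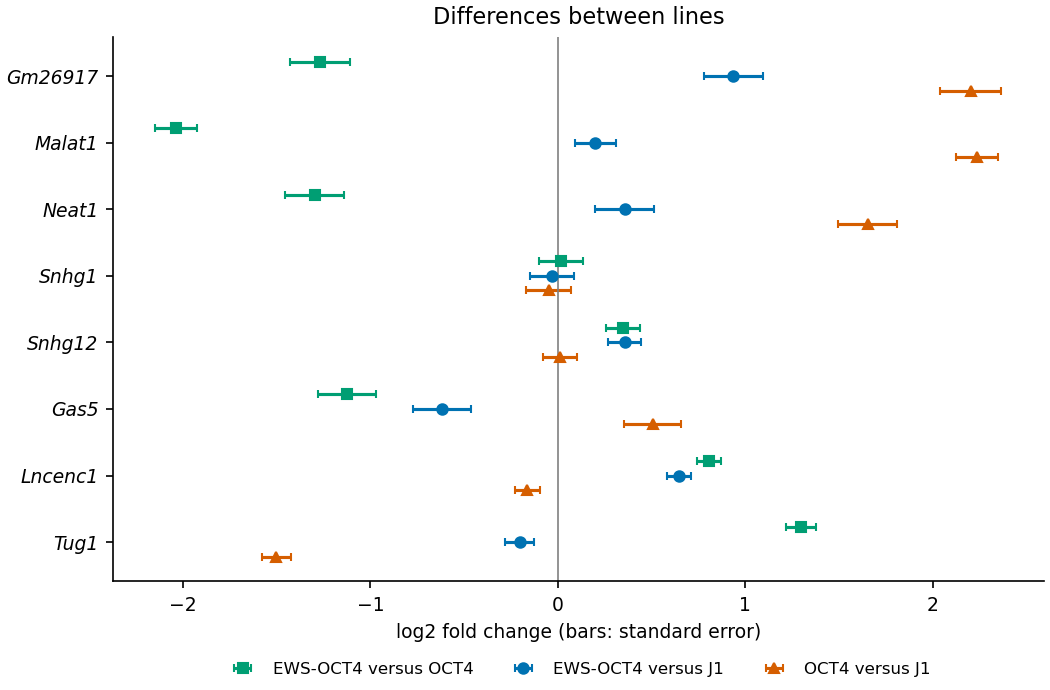
Log2 fold changes of the 8 members in the 3 comparisons, with bars of 1 standard error from the edgeR fit. Malat1 spans -2.04 to 2.24 and Tug1 -1.50 to 1.30 across comparisons, while the values of Snhg1 lie between -0.05 and 0.02.

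Of the 14 naive ES cell markers, all had counts in each line, with a summed level of 4951 to 5240 CPM in J1, 4251 to 4343 in OCT4 libraries and 4677 to 4779 in EWS-OCT4 libraries. Markers of other cell types also moved between the lines. The 12 trophectoderm markers summed to 150 to 176 CPM in J1, 526 to 565 in OCT4 libraries and 294 to 311 in EWS-OCT4 libraries, and none of them was at 0 in any line. The 10 fibroblast markers, which feeder cells would bring, summed to 81.4 to 101 CPM in J1, 58.1 to 64.3 in OCT4 libraries and 28.7 to 31.99 in EWS-OCT4 libraries. Dcn, Lum and Twist2 were at 0 in J1, Lum in OCT4 libraries and Dcn in EWS-OCT4 libraries. The 11 primitive endoderm markers summed to 404 to 426, 259 to 277 and 417 to 423 CPM for J1, OCT4 and EWS-OCT4, and none was at 0. That sum is led by Lama1, a laminin chain, with 294.5 CPM in EWS-OCT4 libraries and 129 in J1. Of the 10 primitive endoderm markers tested, 7 were lower and 2 higher in EWS-OCT4 against J1 (median log2 fold change -1.45). That is 90.0% called, beside 61.9% of all genes. The 10 neuroectoderm markers summed to 112 to 142, 153 to 162 and 121 to 124 CPM in the same order, with Neurog2 at 0 in EWS-OCT4 libraries. The part of these markers in the member differences was not tested. In bulk RNA, a change in the share of cells of a type and a change in RNA per cell cannot be told apart.

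Malat1 and Neat1, the RNAs of nuclear bodies, were high in OCT4 libraries. Malat1 had 571, 717 and 796 CPM in J1 replicates 1 to 3, 2889, 3539 and 3393 in OCT4 libraries, and 756, 868 and 772 in EWS-OCT4 libraries. The OCT4 libraries stood above all others, and the J1 and EWS-OCT4 libraries overlapped. Malat1 was 4.71-fold higher in OCT4 libraries than in J1 (log2 fold change 2.24, SE 0.113, edgeR adjusted p = 4.14e-11) and fell by 2.04 on the log2 scale in EWS-OCT4 libraries against OCT4 (SE 0.112, edgeR adjusted p = 1.54e-10). Against J1 the EWS-OCT4 line differed by 0.20 (95% interval -0.03 to 0.43, edgeR adjusted p = 0.12). This last value passed without J1 replicate 3 (0.31, edgeR adjusted p = 0.0242) and shrank to 0.08 without J1 replicate 1 (edgeR adjusted p = 0.449).

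Neat1 had 117, 184 and 152 CPM in J1, 387, 516 and 518 in OCT4 libraries, and 196, 196 and 187 in EWS-OCT4 libraries. The 3 lines did not overlap in Neat1, but the J1 library nearest to the EWS-OCT4 libraries was less than 3 CPM below the lowest of them. Neat1 was 3.15-fold higher in OCT4 libraries than in J1 (log2 fold change 1.65, SE 0.157, edgeR adjusted p = 3.83e-06). It was lower in EWS-OCT4 libraries than in OCT4 libraries by a log2 fold change of -1.30 (SE 0.156, edgeR adjusted p = 2.7e-05). The 0.36 difference of EWS-OCT4 from J1 did not pass (SE 0.155, edgeR adjusted p = 0.0683). It passed without J1 replicate 2 (0.52, adjusted p = 0.0127) or without OCT4 replicate 1 (0.36, edgeR adjusted p = 0.0269), and shrank to 0.20 without J1 replicate 1 (edgeR adjusted p = 0.21).

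Malat1 and Neat1 are next to each other on chromosome 19, 22035 bases apart in RefSeq, and the coding gene Frmd8 lies beyond Neat1. Its log2 fold changes were smaller than those of the pair. Frmd8 differed by 0.37 (SE 0.101) in OCT4 against J1 and by 0.07 (SE 0.102, not called) in EWS-OCT4 against J1.

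**Figure D3:**
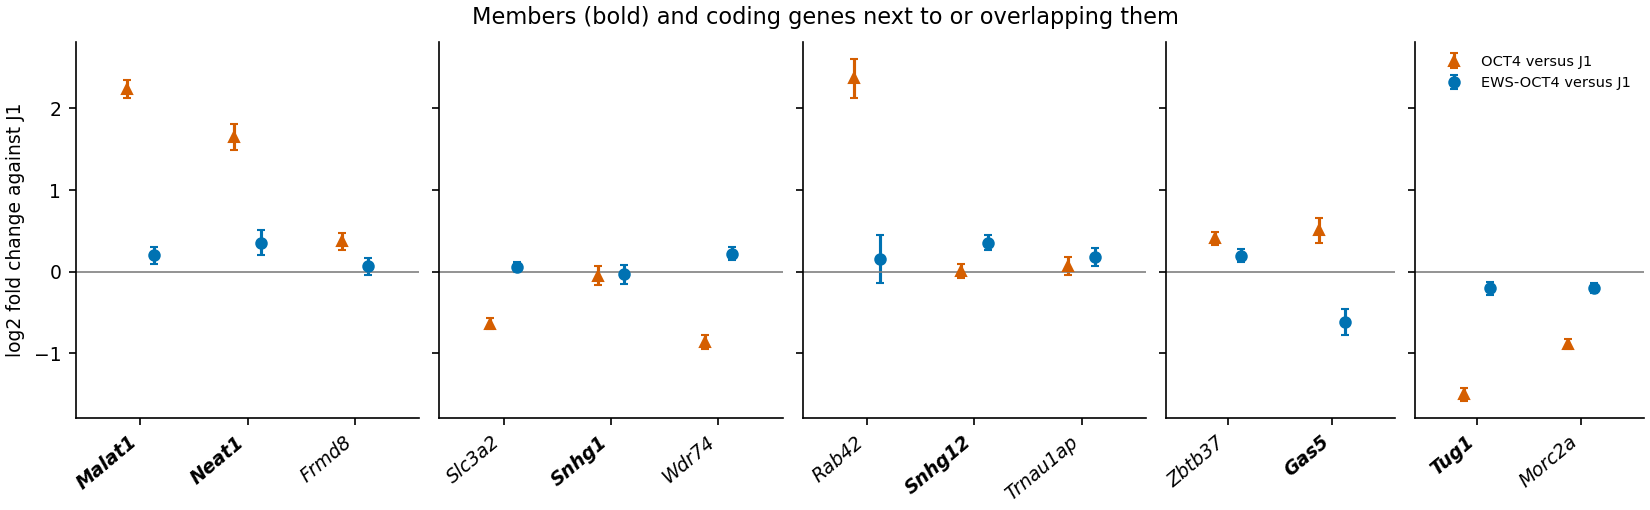
Log2 fold changes against J1, with bars of 1 standard error, for members (bold) and coding genes next to or overlapping them, each panel 1 locus. Malat1 and Neat1 exceed Frmd8 in OCT4 libraries, Tug1 and Morc2a are lower together, and Snhg1 lies between coding genes that are lower in OCT4 libraries.

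Genes for proteins of these nuclear bodies were measured here only as RNA. Of 17 paraspeckle protein genes, 8 were higher and 5 lower in EWS-OCT4 against OCT4 (median log2 fold change 0.18, beside -0.04 over all tested genes), and 4 were higher and 5 lower in OCT4 against J1 (median -0.04 beside 0.01). Pspc1, a core paraspeckle protein, was 151 CPM in EWS-OCT4 libraries and 72.8 in OCT4 libraries (log2 fold change 1.05), the opposite direction to Neat1. Hnrnph3 moved with Neat1, from 51.7 CPM in J1 to 103 in OCT4 libraries (0.99). Against J1, 8 of the 17 were higher and 2 lower in EWS-OCT4 libraries (median 0.12 beside 0.00). The shares called were 76.5%, 52.9% and 58.8% for EWS-OCT4 against OCT4, OCT4 against J1 and EWS-OCT4 against J1. Over all genes they were 66.5%, 67.0% and 61.9%.

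Of 20 nuclear speckle protein genes, 3 were higher and 11 lower in OCT4 against J1 (median -0.22), and 11 were higher and 3 lower in EWS-OCT4 against OCT4 (median 0.32). EWS-OCT4 against J1 had 6 higher and 3 lower (median 0.11). The shares called were 70.0%, 70.0% and 45%, beside 67.0%, 66.5% and 61.9% of all genes. In both comparisons with OCT4 libraries most called genes went the opposite way to Malat1. As both use the same OCT4 libraries, they are not independent. The splicing factors Srsf2 and Srsf7 fell from 330 and 194 CPM in J1 to 166 and 97.0 in OCT4 libraries (log2 fold changes -0.993 and -0.999), where Malat1 was highest. Clk1 and Srrm1 were higher there, by 0.35 and 0.34.

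A list was taken for the machinery known to make and hold the ends printed above. It holds RNase P subunits, the tRNA end-processing enzyme Elac2 and the triple-helix binding protein Mettl16. It also holds the RNA methyltransferase genes Mettl3 and Mettl14, which are not part of that machinery but are included in its counts and medians. In EWS-OCT4 against OCT4, 10 of its 14 members were higher and 2 lower (median 0.45), and in OCT4 against J1, 3 were higher and 6 lower (median -0.12). EWS-OCT4 against J1 had 5 higher and 3 lower (median 0.01). The shares called were 85.7%, 64.3% and 57.1% in the order given. Over all genes they were 66.5%, 67.0% and 61.9%. Elac2, the nuclease that trims the 3′ ends of tRNAs and of mascRNA, was 123 CPM in J1, 46.4 in OCT4 libraries and 108 in EWS-OCT4 libraries. Its log2 fold change was -1.41 in OCT4 against J1 and 1.21 in EWS-OCT4 against OCT4. Mettl16, which binds the Malat1 triple helix, was 119 CPM in J1 and 59.7 in OCT4 libraries (log2 fold change -0.998). Pop4, an RNase P subunit, was higher than J1 in both lines, at 36.7 CPM in OCT4 libraries and 56.1 in EWS-OCT4 libraries against 14.8.

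The 3 snoRNA hosts each showed another pattern. Snhg1 had 22.7, 19.7 and 19.9 CPM in J1, 21.6, 23.0 and 15.7 in OCT4 libraries, and 21.97, 19.5 and 19.5 in EWS-OCT4 libraries. All lines overlapped. Its log2 fold changes were 0.02 (95% interval -0.23 to 0.27), -0.03 (-0.28 to 0.22) and -0.05 (-0.30 to 0.20) for EWS-OCT4 against OCT4, EWS-OCT4 against J1 and OCT4 against J1, with edgeR adjusted p = 0.909, 0.832 and 0.733. These intervals do not show that the lines are equal, and they reach from a ratio of 0.813 to one of 1.21.

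The coding genes beside Snhg1 did differ. Slc3a2, the heavy chain of an amino acid transporter, lies 117 bases away and had 136 ± 5.41 CPM in J1, 87.9 ± 3.19 in OCT4 libraries and 142 ± 1.89 in EWS-OCT4 libraries (SD, n = 3). Its log2 fold change was -0.63 in OCT4 against J1 (edgeR adjusted p = 9.11e-08) and 0.70 in EWS-OCT4 against OCT4 (edgeR adjusted p = 3.42e-08). Wdr74, a ribosome assembly factor on the other side, differed by -0.86 and 1.08 in the same comparisons.

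Snhg12 had 14.2, 13.3 and 13.0 CPM in J1, 13.9, 13.3 and 13.6 in OCT4 libraries, and 17.4, 16.2 and 18.3 in EWS-OCT4 libraries. All EWS-OCT4 libraries were above the others, which overlapped. Snhg12 was 1.27-fold higher than in OCT4 libraries (log2 fold change 0.35, SE 0.0889, edgeR adjusted p = 0.00226) and 1.28-fold higher than in J1 (0.36, SE 0.0885, edgeR adjusted p = 0.002). OCT4 and J1 differed by 0.01 (95% interval -0.18 to 0.20, edgeR adjusted p = 0.929). Both calls were lost against a minimum fold of 1.5. Its neighbour Trnau1ap, a factor of selenocysteine tRNA, was called in no comparison, and the neighbour Rab42 was raised 2.37 on the log2 scale in OCT4 against J1 from only 48 counts over the J1 libraries.

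Gas5, named for its rise in growth-arrested cells, had 50.9, 78.2 and 74.4 CPM in J1, 106, 101 and 81.8 in OCT4 libraries, and 47.0, 45.02 and 40.7 in EWS-OCT4 libraries. The 3 lines did not overlap, though J1 replicate 1 was near the EWS-OCT4 libraries and J1 replicate 2 near the lowest OCT4 library. Gas5 was lower in EWS-OCT4 than in OCT4 by a log2 fold change of -1.12 (SE 0.155, edgeR adjusted p = 7.93e-05). Against J1 it was lower in EWS-OCT4 libraries (-0.62, SE 0.155, edgeR adjusted p = 0.00551) and higher in OCT4 libraries (0.51, SE 0.152, edgeR adjusted p = 0.0125). Without J1 replicate 2 the EWS-OCT4 call against J1 was lost (-0.50, edgeR adjusted p = 0.0538).

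Gas5 overlaps the coding gene Zbtb37 in RefSeq, and whether the counting used strand is not given in the sources used here, so reads of overlapping exons cannot be assigned with certainty. Zbtb37, a zinc finger gene, had 43.5 CPM in J1, 57.7 in OCT4 and 49.8 in EWS-OCT4 libraries, with 0.41 in OCT4 against J1 and -0.21 in EWS-OCT4 against OCT4. Of the 31-base words in the annotated transcripts of Gas5, 9.74% also occur in transcripts of other genes, beside 12.9% for Snhg1 and 13.9% for Snhg12.

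Rows for snoRNAs inside these hosts held few counts. Snord22, in Snhg1, had 96, 84 and 118 counts summed over the J1, OCT4 and EWS-OCT4 libraries and was called in no comparison. Snora16a, Snora44, Snora61 and Snord99, in Snhg12, and Snord47, in Gas5, each had at most 12 counts per line. These counts are too few to compare lines, and why they are low was not tested.

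Among the 17 snoRNA host lncRNAs that are not members, 3 were higher and 6 lower in EWS-OCT4 against OCT4 (median -0.10), 3 and 6 in EWS-OCT4 against J1 (median -0.02), and 5 and 5 in OCT4 against J1 (median 0.02). In this order 52.9%, 52.9% and 58.8% were called, beside 66.5%, 61.9% and 67.0% of all genes. Snhg5 was highest in EWS-OCT4 libraries, at 65.6 ± 2.63 CPM against 22.4 ± 0.834 in OCT4 libraries and 38.9 ± 3.52 in J1 (SD, n = 3). Snhg14, the large host in the Prader-Willi region, was lower than J1 (31.7 CPM) in both stable lines, at 13.5 in OCT4 and 15.4 in EWS-OCT4. Snhg20 was highest in OCT4 libraries, at 16.9 CPM against 7.99 in J1 and 11.7 in EWS-OCT4.

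Of 23 coding genes that also host snoRNAs, 6 were higher and 14 lower in EWS-OCT4 against OCT4 (median -0.26), 2 and 10 in EWS-OCT4 against J1 (median -0.14), and 7 and 9 in OCT4 against J1 (median 0.02). In this order 87.0%, 52.2% and 69.6% were called, beside 66.5%, 61.9% and 67.0% of all genes. Eef2, the translation elongation factor, was 3722 CPM in OCT4 libraries and 1769 in EWS-OCT4 libraries, the direction of Gas5, while the nucleolar protein gene Nop56 was 260 and 576, the opposite direction.

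Factors of the decay pathway that limits spliced host RNAs were called no more often than all genes. Of 10 nonsense-mediated decay factors, 3 were higher and 2 lower in EWS-OCT4 against OCT4 (median 0.13), 2 and 4 in EWS-OCT4 against J1 (median -0.06), and 2 and 4 in OCT4 against J1 (median -0.01). That is 50%, 60.0% and 60.0% called, beside 66.5%, 61.9% and 67.0% of all genes. Upf1, its central helicase, was 172 CPM in J1, 98.4 in OCT4 libraries and 108 in EWS-OCT4 libraries (log2 fold changes -0.81 and -0.67 against J1). Upf2 went the other way, with 127 CPM in J1, 163 in OCT4 libraries and 177 in EWS-OCT4 libraries (0.36 and 0.48 against J1). Of 12 genes known to respond to the pathway, 4 were higher and 6 lower in EWS-OCT4 against OCT4 (median -0.20), 4 and 3 in EWS-OCT4 against J1 (median 0.01), and 6 and 4 in OCT4 against J1 (median 0.13). For these 12 genes 83.3%, 58.3% and 83.3% were called, above the shares of all genes in both comparisons with OCT4 libraries. Gadd45b, a stress gene, was 6.74 CPM in J1, 40.7 in OCT4 libraries and 10.5 in EWS-OCT4 libraries. Srsf2 and Srsf7, on the same list, were lower in OCT4 libraries than in J1 (log2 fold changes -0.993 and -0.999).

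Lncenc1 was highest in EWS-OCT4 libraries. It had 240, 224 and 229 CPM in J1, 212, 197 and 210 in OCT4 libraries, and 371, 351 and 361 in EWS-OCT4 libraries. The EWS-OCT4 libraries stood clearly above the rest, and the J1 libraries lay just above the OCT4 libraries without overlap. Lncenc1 was 1.75-fold higher in EWS-OCT4 than in OCT4 (log2 fold change 0.81, SE 0.0646, edgeR adjusted p = 6.34e-09) and 1.56-fold higher than in J1 (0.64, SE 0.0643, edgeR adjusted p = 1.48e-07). Against J1 the OCT4 line fell by 0.16 on the log2 scale (SE 0.0644, edgeR adjusted p = 0.0343). This small difference lost its call without J1 replicate 1 (edgeR adjusted p = 0.0518), without OCT4 replicate 2 (0.143) and without OCT4 replicate 3 (0.0603).

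Other ES cell lncRNAs went in several directions. Of 32 Platr symbols, a family named for pluripotency-associated transcripts, 18 were in the files and 15 were tested. In EWS-OCT4 against J1, 9 were higher and 3 lower (median 0.34), with Platr14 at 45.7 CPM against 20.4. In EWS-OCT4 against OCT4, 6 were higher and 7 lower (median -0.13), and Platr10 had 38.4 CPM in EWS-OCT4 and 17.3 in OCT4 (log2 fold change 1.15). In OCT4 against J1, 7 were higher and 4 lower (median 0.06). The Platr shares called were 80.0%, 86.7% and 73.3% in the order given, beside 61.9%, 66.5% and 67.0% of all genes. The naive ES cell markers had 6 higher and 3 lower of 14 in EWS-OCT4 against OCT4, 5 and 6 in EWS-OCT4 against J1, and 3 and 9 in OCT4 against J1. Of these markers 64.3%, 78.6% and 85.7% were called, beside 66.5%, 61.9% and 67.0% of all genes. The nearest genes to Lncenc1, Gm33447 and Gm41030, had at most 13 counts per line and were not tested.

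Tug1 was low in OCT4 libraries. It had 166, 143 and 150 CPM in J1, 57.4, 56.2 and 48.7 in OCT4 libraries, and 139, 131 and 129 in EWS-OCT4 libraries. The OCT4 libraries lay far below the others, and the lowest J1 library lay just above the highest EWS-OCT4 library. Tug1 was 2.83-fold lower in OCT4 than in J1 (log2 fold change -1.50, SE 0.0790, edgeR adjusted p = 1.97e-11) and 2.46-fold higher in EWS-OCT4 than in OCT4 (1.30, SE 0.0788, edgeR adjusted p = 1.64e-10). The smaller difference of EWS-OCT4 from J1 (-0.20, SE 0.0760, edgeR adjusted p = 0.0277) lost its call without J1 replicate 1 (edgeR adjusted p = 0.0832), EWS-OCT4 replicate 2 (0.112) or EWS-OCT4 replicate 3 (0.105).

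Morc2a, a chromatin-compacting ATPase whose RefSeq gene is 374 bases from Tug1, had 148, 148 and 154 CPM in J1, 79.9, 79.1 and 85.3 in OCT4 libraries, and 127, 135 and 132 in EWS-OCT4 libraries. It was low in the same line as Tug1. Its log2 fold changes were -0.88 in OCT4 against J1 (SE 0.0636, edgeR adjusted p = 1.24e-09), -0.20 in EWS-OCT4 against J1 (SE 0.0626, edgeR adjusted p = 0.012) and 0.69 in EWS-OCT4 against OCT4 (SE 0.0636, edgeR adjusted p = 4.15e-08). Without strand information, reads across this short gap cannot be assigned to one gene with certainty.

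Gm26917 had 11000, 8148 and 9264 CPM in J1, 36840, 56810 and 37240 in OCT4 libraries, and 18230, 19080 and 17070 in EWS-OCT4 libraries. As shares of library counts these were 1.12%, 0.841% and 0.932% in J1, 3.71%, 5.81% and 3.78% in OCT4 libraries, and 1.77%, 1.84% and 1.64% in EWS-OCT4 libraries. The Wilson 95% interval of the highest share was 5.80% to 5.82%. It covers counting error only and was far narrower than the spread between replicates. The lines did not overlap. The log2 fold changes were 2.20 (SE 0.164) in OCT4 against J1, 0.94 (SE 0.158) in EWS-OCT4 against J1 and -1.27 (SE 0.159) in EWS-OCT4 against OCT4. They are given without a p, because these very differences were among the earlier results known when the set was chosen. Without OCT4 replicate 2 the OCT4 mean went from 43630 to 36970 CPM and the difference from J1 to 1.97.

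Symbols that often carry ribosomal RNA reads varied with Gm26917 in part. AY036118 had 3.37, 4.11 and 3.71 CPM in J1, 13.8, 43.1 and 37.2 in OCT4 libraries, and 7.55, 7.88 and 10.6 in EWS-OCT4 libraries. The order of lines was the same, although EWS-OCT4 against J1 was not called (log2 fold change 1.22, edgeR adjusted p = 0.0823). Lars2, a mitochondrial leucyl-tRNA synthetase gene with a stretch of ribosomal sequence, had 634, 397 and 517, then 793, 1021 and 750, then 549, 525 and 535. For Lars2 the J1 and EWS-OCT4 libraries overlapped (log2 fold change 0.06, edgeR adjusted p = 0.78), and the OCT4 line was higher than J1 by 0.73 (edgeR adjusted p = 0.00199). In J1, replicate 1 was highest and replicate 2 lowest for Gm26917 and for Lars2, and in OCT4 libraries replicate 2 was highest for Gm26917, AY036118 and Lars2. The match was partial. For AY036118 in J1, replicate 2 was highest and replicate 1 lowest. In EWS-OCT4 libraries the highest was replicate 2 for Gm26917, replicate 3 for AY036118 and replicate 1 for Lars2.

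The mitochondrial ribosomal RNAs shared the J1 extremes of Gm26917 and its highest OCT4 library. In EWS-OCT4 libraries they did not, and replicate 1 was highest for both. The line means of mt-Rnr1 had the order of Gm26917 (986.5 in J1, 1353 in EWS-OCT4 and 1539 in OCT4 libraries), although EWS-OCT4 against OCT4 was not called (edgeR adjusted p = 0.152), and those of mt-Rnr2 did not. Counts of mt-Rnr1 were 1091, 814 and 1055 CPM in J1, 1351, 1799 and 1467 in OCT4 libraries, and 1389, 1338 and 1333 in EWS-OCT4 libraries. Counts of mt-Rnr2 were 2148, 1303 and 1915, then 2241, 3358 and 1911, then 3454, 3196 and 3066, and were thus highest in the EWS-OCT4 libraries but for OCT4 replicate 2. The small RNA Rn4.5s went the other way from Gm26917, with 9.62 ± 1.01 CPM in J1, 1.54 ± 0.816 in OCT4 libraries and 6.42 ± 0.494 in EWS-OCT4 libraries (SD, n = 3), and Rn5s had 0 counts in all libraries. The 13 mitochondrial messenger RNAs took 12.5% to 15.7% of counts in J1, 10.1% to 12.5% in OCT4 libraries and 16.3% to 17.1% in EWS-OCT4 libraries. The part of ribosomal RNA carried into the libraries in the Gm26917 values was not tested.

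**Figure D4:**
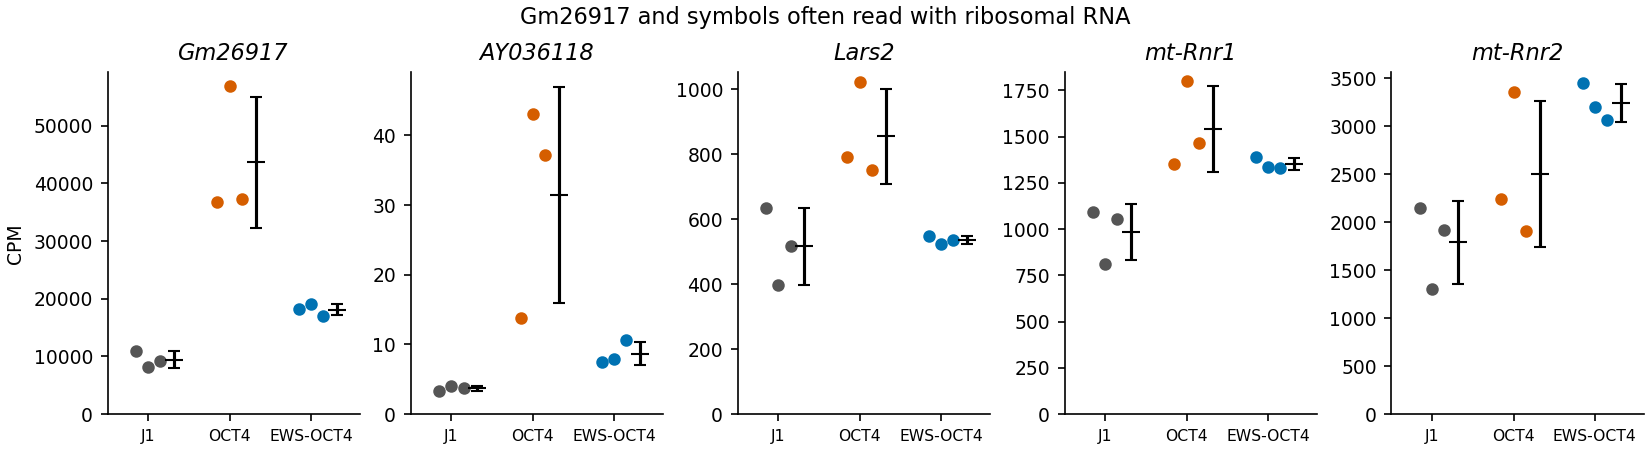
CPM (linear axes from 0) of Gm26917 and of 4 symbols often read with ribosomal RNA, replicates 1 to 3 from left to right in each line, with the mean ± SD in black. OCT4 replicate 2 is the highest OCT4 library in all 5 panels, and the order of the lines seen for Gm26917 recurs for AY036118 and in the means of mt-Rnr1 but not for mt-Rnr2.

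Comparing levels between genes needs a length, and CPM per kilobase of merged GENCODE exons was used as a rough scale. Merged exons join all annotated transcripts of a gene (4 for Neat1, 18 for Snhg1 and 25 for Gas5). Which of these isoforms the reads came from was not measured. Where shorter isoforms dominate, the value is too low, so the order below holds for this scale only. In J1 the order was Gm26917 (2845), Malat1 (99.5), Lncenc1 (69.9), Gas5 (18.0), Tug1 (15.7), Neat1 (7.25), Snhg1 (6.99) and Snhg12 (5.62). Gas5 at ± 3.93 and Tug1 at ± 1.21 did not differ beyond their SD (n = 3), nor did Neat1 at ± 1.61 and Snhg1 at ± 0.565. In the OCT4 line Malat1 stood at 469 ± 48.8 CPM per kilobase and Lncenc1 at 62.5 ± 2.49, whereas in EWS-OCT4 libraries they were close, at 114 ± 8.69 and 109 ± 3.15. Neat1 at 22.8 ± 3.62 was level with Gas5 at 25.6 ± 3.43 in OCT4 libraries, and Tug1 went from above Neat1 in J1 to the lowest place there, at 5.56 ± 0.487 beside Snhg12 at 5.66 ± 0.109. Long transcripts lose rank on this scale: the merged exons are 20.8 kilobases for Neat1 and 2.40 for Snhg12.

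Replicate spread differed between members and lines. The median coefficient of variation (CV; SD as a percent of the mean) of the 3812 genes with at least 50 CPM was 8.04% in J1, 4.70% in OCT4 libraries and 3.22% in EWS-OCT4 libraries. Lncenc1 varied little in each line, with CVs of 3.47%, 3.98% and 2.88% in the same order. Neat1 varied by 22.2% in J1, 15.9% in OCT4 libraries and 2.83% in EWS-OCT4 libraries, and Gas5 by 21.8%, 13.4% and 7.37%. In J1, Neat1 and Gas5 were above 97.5% and 97.1% of those genes. Gm26917 varied by 15.2%, 26.2% and 5.58%, and in OCT4 libraries it was above 99.8% of them.

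Counting error was not the limit for most members. It alone would give a CV of 0.212% for Gm26917 and 2.53% for Gas5 in J1. Snhg1 in OCT4 libraries varied by 19.3%, where counting alone would give 4.74%, because replicate 3 was low. Snhg12 varied by 1.93% there, under the 5.72% that counting alone would give, so its 3 OCT4 libraries were closer than depth can resolve.

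**Figure D5:**
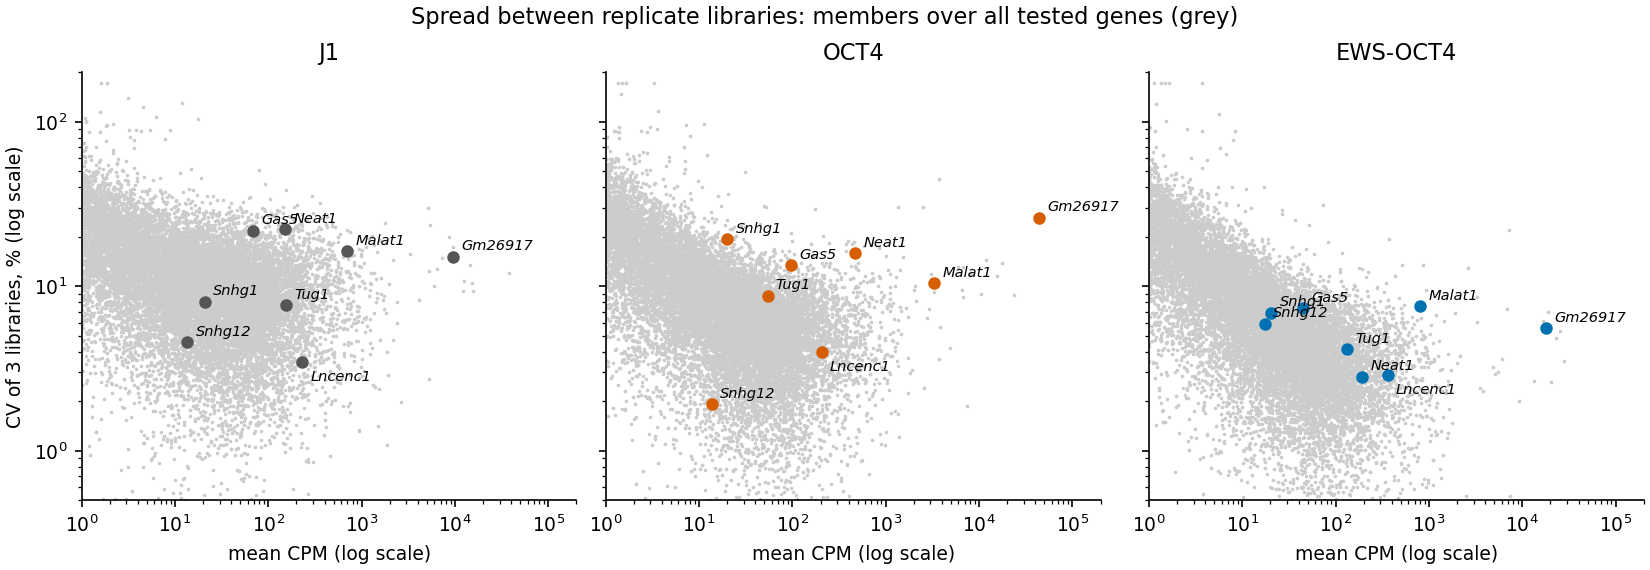
CV of the 3 libraries against mean CPM (both axes log scale) in each line, with all tested genes in grey and members in colour. Gm26917, Neat1 and Snhg1 lie at the upper edge of the cloud in OCT4 libraries, and Lncenc1 lies inside it in all 3 lines.

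The members can be set beside all 1400 tested lncRNA symbols. In OCT4 against J1, 570 of these were higher and 255 lower (58.9% called, median log2 fold change 0.44 beside 0.01 over all genes), and in EWS-OCT4 against OCT4, 277 were higher and 526 lower (57.4% called, median -0.35 beside -0.04). EWS-OCT4 against J1 had 345 higher and 282 lower (44.8% called, median 0.08). Over all genes 67.0%, 66.5% and 61.9% were called in this order, a larger share than of lncRNAs each time. The directions of Malat1, Neat1 and Gas5 in OCT4 libraries were thus those of the larger group of called lncRNAs, and Tug1 and Lncenc1 went against it. Among 25 tested lncRNAs on a list of well-known names, 10 were higher and 8 lower in EWS-OCT4 against OCT4 (median -0.06), 11 and 7 in EWS-OCT4 against J1 (median 0.13), and 7 and 6 in OCT4 against J1 (median 0.04). For this list 72%, 72% and 52% were called in the order given, beside 66.5%, 61.9% and 67.0% of all genes. The share was thus above that of all genes in both comparisons with EWS-OCT4 libraries and below it in OCT4 against J1. H19, an imprinted lncRNA, was 600 CPM in OCT4 libraries, 39.9 in J1 and 20.5 in EWS-OCT4. Rian and Mirg, of the imprinted Dlk1-Dio3 region, were 236 and 27.9 CPM in EWS-OCT4 against 53.6 and 2.96 in OCT4.

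The genes most like each member were those with the highest Pearson r of log2 CPM over the 9 libraries, among 9015 genes averaging at least 10 CPM. With only 3 lines, which these libraries share, such values mainly follow the order of the line means and are given as a description. Malat1 was most like Katnal1 (r = 0.997), Neat1 like Efna3 (0.996), Tug1 like 1700019D03Rik (0.998), Lncenc1 like Ext1 (0.997), and Gm26917 like Pkd1 (0.993). The highest values were 0.983 for Snhg12 with Tm9sf1 and 0.972 for Gas5 with Lrp10. For Snhg1, whose levels did not follow the lines, the highest was 0.849, with Acad9.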

How the data were processed

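RNA was sequenced in 9 libraries, from total RNA extracted with RNAiso Plus and prepared with the CORALL V2 kit, per the labels' protocols. The files deposited by the authors give each library its own table of raw counts by gene symbol. Tools listed in the submitters' processing notes are GATK, Salmon, STAR and fastp, with the build GRCm39. Not given in the sources used here are versions, roles, annotation, strand, use of molecular identifiers and how ribosomal RNA was removed, so counts of overlapping genes and shared sequence are uncertain.

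Groups came from the titles. Low genes were dropped with filterByExpr (at least 10 counts, 15 in total), and counts were scaled by TMM and fitted with all libraries in 1 model of 3 groups (edgeR 4.0.16, R 4.3.3, robust glmQLFit and glmQLFTest, Benjamini-Hochberg, 0.05). Standard errors are the log2 fold change over the square root of F, and intervals use the test's degrees of freedom. The test was checked on simulated data. The members and gene lists were chosen with earlier results of these data known. The text names all members, the ribosomal list, some adjacent or overlapping genes (others are not reported here), the 3 most similar genes at most, and up to 2 genes per list and direction with the largest called change and at least 5 CPM.

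The reference at hand is GRCm38 (GENCODE M21 and RefSeq), another build than that of the counts, so it was used for sequences, exon lengths, names and neighbours only. The alternatives were other scalings, filters and tools (DESeq2 1.42.0, limma-voom in limma 3.58.1), a fit of the compared libraries only, a replicate block, glmTreat and each library left out.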

Additional observations from a re-analysis of the deposited data

Results flagged for a closer look

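Gas5 and Lncenc1 stood out because the OCT4 and EWS-OCT4 lines differed from J1 in opposite directions, each with a call. As they were picked for opposite directions, the comparison of the lines with each other restates that choice and is given as a value. For Gas5 it was -1.12 on the log2 scale, with the EWS-OCT4 line below J1 and the OCT4 line above it. For Lncenc1 it was 0.81, with the EWS-OCT4 line above J1 and the OCT4 line below it. In both genes all 3 EWS-OCT4 libraries lay on one side of all 3 OCT4 libraries. The opposite directions rest on differences from J1 that depended in part on single libraries, and that of the OCT4 line in Lncenc1 was small (-0.16). The OCT4 difference of Lncenc1 from J1 lost its call without OCT4 replicate 2 (edgeR adjusted p = 0.143), OCT4 replicate 3 (0.0603) or J1 replicate 1 (0.0518), and the EWS-OCT4 difference of Gas5 from J1 without J1 replicate 2 (0.0538).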

How the results depend on the processing

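Against a minimum fold of 1.5 (glmTreat), the genes called fell to 4706 for EWS-OCT4 against OCT4, 3849 for EWS-OCT4 against J1 and 5249 for OCT4 against J1, from 11012, 10249 and 11098. That test asks for a larger change by construction. Leaving out 1 library each time gave 10218 to 11665, 9310 to 10273 and 10541 to 11214 calls. With the replicate number as a block the counts were 11246, 10534 and 11356. The labels do not say that a number marks a shared batch, and the deviations of same-numbered libraries correlated by 0.00 to 0.07, and not every library correlated best with its own number, so the numbers were not taken as pairs. The block also brought Malat1 (adjusted p = 0.023) and Neat1 (0.00667) past the threshold in EWS-OCT4 against J1 (edgeR). So did testing without a low-count filter (0.0127 and 0.0056). Neat1 passed there as well with DESeq2 (0.0121) and with the compared libraries only (0.0321). The last setting also ended the Lncenc1 call in OCT4 against J1 (edgeR adjusted p = 0.0707). The minimum fold ended that call, the calls of Snhg12 against both other lines, Gas5 and Lncenc1 calls against J1, and the Tug1 call of EWS-OCT4 against J1. No member with a call changed direction in any of the 19 alternatives. When library totals left out ribosomal-list and mitochondrial genes, 21 of the 24 member means in CPM moved by more than 1 SD, all upward because the total shrinks. Low counts limit the snoRNA rows, for a reason not tested. Depth limits Snhg12, whose replicate CV is under the counting CV in J1 (4.59% beside 5.61%) and in OCT4 libraries (1.93% beside 5.72%).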
